A study of Homo sapiens with 14 samples.

Results

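Set against the Renilla control hairpin, the UTX hairpin in CEM cells left 92.6% of the genes considered within 1.5-fold, and a limited set stood apart. KDM6A, the gene of UTX, was 1.37 lower on the log2 scale. The potassium channel gene KCNK17, the lymphocyte genes CD48 and PTCRA and CD1 family genes were lower. The adhesion gene SDK2, the lysosomal protease gene LGMN, CCNE1 and several genes of the hypoxia response were higher. The comparison takes every gene with at least 50 counts in either of the 2 CEM columns, the UTX hairpin (shUTX) and the Renilla luciferase hairpin (shRenilla), which left 16791 of the 55075 genes in the tables.

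The 14 samples come from 2 established human lines of T cell acute lymphoblastic leukemia (T-ALL), CEM and CUTLL1, each given a short hairpin by retroviral infection. The hairpins target UTX (KDM6A), JMJD3 (KDM6B) or, as control, the luciferase of Renilla, which has no counterpart in human cells. CEM had 2 samples with shUTX, 2 with shJMJD3 and 2 with shRenilla. CUTLL1 had 2 samples with shUTX, 3 with shJMJD3 and 3 with shRenilla. All groups carry an integrated hairpin vector, and all were grown in suspension in RPMI medium. Time after infection, selection of infected cells and the number of hairpins per target were not found in the labels. RNA was enriched for polyadenylated molecules or depleted of ribosomal RNA, and which sample received which is not given.

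UTX and JMJD3 are demethylases of H3K27, the lysine at position 27 of histone H3. Trimethylation at that site is laid down by Polycomb repressive complex 2 (PRC2) and is found at silent genes of other lineages and stages. UTX is also a subunit of COMPASS-type complexes that methylate H3K4 at enhancers, so it is known both as a demethylase and as a scaffold. The gene is mutated in a share of T-ALL, where it is described as a tumour suppressor, and the title of the series contrasts its role with that of JMJD3.

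The authors deposited 1 pooled count per gene and hairpin in each line, so no replicate spread can be had within CEM, and no test within CEM was made. The CEM columns held 70834792 counts for shUTX and 104190473 for shRenilla. In these columns, protein-coding genes took 93.2% of the counts with shUTX and 93.0% with shRenilla, and mitochondrially encoded genes took 3.24% and 2.79%, in the same order. Ratios below are log2 of shUTX over shRenilla after TMM scaling (trimmed mean of M values), with a prior count of 2. Intervals are exact binomial at 95% and hold counting error alone. Levels are given as CPM, the count scaled to the column total, which compare columns for 1 gene and not genes with each other. The T cell label held: CD3D, which carries the receptor's signal inwards, had 525 CPM with shUTX and 507 CPM with shRenilla, and the 10 T cell markers measured summed to 4834 CPM and 4995 CPM in that order. TRBC1 was not analysed here. The B cell gene MS4A1, the myeloid gene S100A8 and the erythroid gene HBA2 were at 0 counts in both columns. CD79A, a B cell receptor gene, had 64.5 CPM with shUTX and 74.7 CPM with shRenilla, as the most abundant of the 6 B cell markers measured of 12. The 6 summed to 85.9 CPM with shUTX and 91.3 CPM with shRenilla. Of them 2, BLK and IGLL1, were at least 1.5-fold higher with shUTX, where 3.33% of all genes were. The kinase gene BLK had 649 counts with shUTX and 580 with shRenilla, a log2 ratio of 0.75. The surrogate light chain gene IGLL1 had 122 and 91 counts in that order, a ratio of 1.00. Of 11 myeloid, 7 erythroid and 8 fibroblast markers, 1, 1 and 2 were measured. The measured myeloid marker had 5.94 CPM with shUTX and 5.39 CPM with shRenilla. The measured erythroid marker had 15.4 CPM and 14.8 CPM in that order, so not every marker of these lineages was at 0. The 2 fibroblast markers summed to 3.42 CPM with shUTX and 4.59 CPM with shRenilla.

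Of the 16791 genes, 559 (3.33%) were at least 1.5-fold higher with shUTX and 680 (4.05%) at least 1.5-fold lower. At 2-fold the counts were 135 higher (0.804%) and 206 lower (1.23%). The middle 90% of genes lay between -0.52 and 0.48 on the log2 scale. The spread followed the depth: 20.1% of genes with 50 up to 500 counts in their higher column stood at least 1.5-fold apart, 3.39% of those with 500 up to 5000, and 0.746% of those with 5000 or more. Because the shRenilla column is deeper, a minimum count admits low genes that are high with shRenilla more readily than the opposite. With the minimum set on the mean level of both columns, at 1 CPM, 409 genes were higher and 318 lower, an alternative chosen after seeing the data. Among protein-coding genes at the 50-count minimum, 389 of 12531 were higher (3.10%) and 270 lower (2.15%). At the threshold itself, the 51 genes with 50 counts in their higher column had a median absolute log2 ratio of 0.33, and the 52 genes with 49 counts had 0.47.

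**Figure D1:**
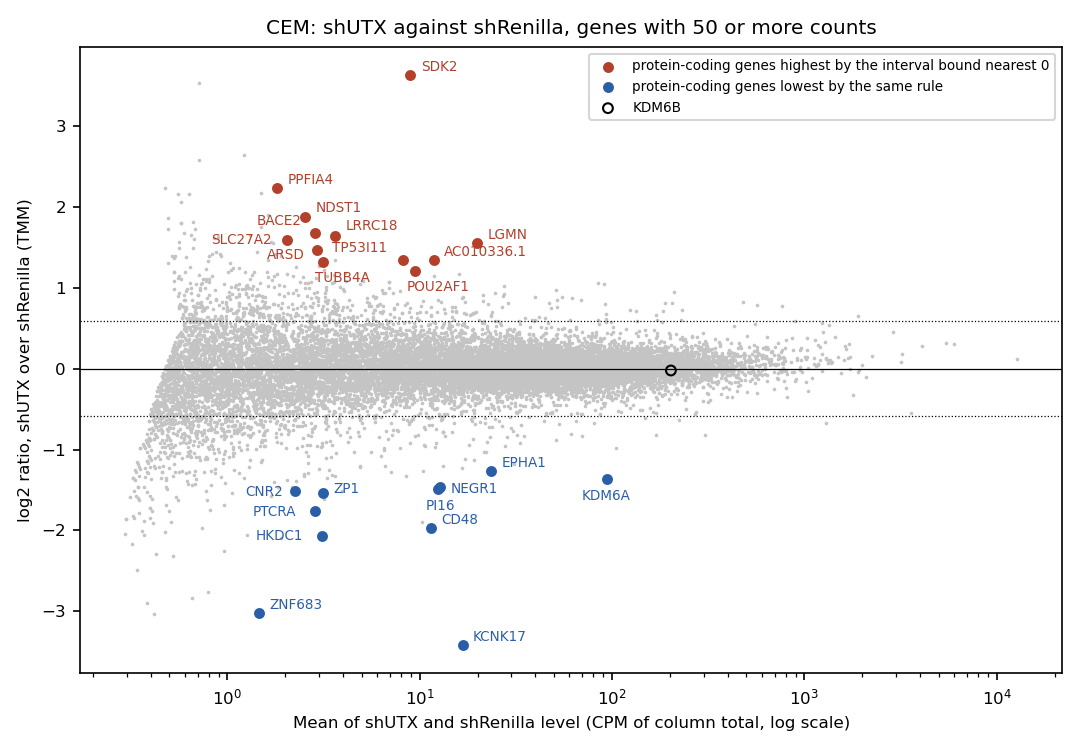
Log2 ratio of shUTX over shRenilla in CEM against the mean level of both columns in CPM (log scale), 1 point per gene with 50 or more counts in either column. Dotted lines mark 1.5-fold; genes at both ends by the interval bound nearest 0 are named, with SDK2 at 3.63 and KCNK17 at -3.42, and KDM6B lies at -0.02.

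The targeted gene was lower in both lines. KDM6A had 3646 counts (51.5 CPM) with shUTX, against 14169 counts (136 CPM) with shRenilla, which gave -1.37 on the log2 scale (interval -1.42 to -1.31). CUTLL1 had 19.3 CPM with shUTX and 43.0 CPM with shRenilla, or -1.12. Transcript therefore remained in the knockdown column of either line. KDM6B, the gene of the other H3K27 demethylase, had 198 CPM with shUTX and 206 CPM with shRenilla in CEM, or -0.02 on the log2 scale (-0.05 to 0.01), a sign that turns under DESeq2 size factors (0.01). The CUTLL1 ratio was 0.43.

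Apart from the targeted KDM6A, which is not on these lists, none of the measured genes of the machinery around H3K27 and H3K4 passed 1.5-fold. This held for the 11 PRC2 genes (median log2 ratio -0.07), the 19 PRC1 genes (-0.06), the 17 COMPASS genes (-0.01, positive under DESeq2 size factors) and 19 other histone demethylases (0.03, negative under column totals). The median over all 16791 genes was 0.00. EZH2, the methyltransferase of PRC2, had 99.1 CPM with shUTX and 98.3 CPM with shRenilla.

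The NOTCH pathway, which drives most T-ALL, showed ratios near 0 with PTCRA as the exception. None of 7 receptor and ligand genes was 1.5-fold apart. NOTCH1, the receptor itself, had 418 CPM with shUTX and 453 CPM with shRenilla, and NOTCH3 had 37.8 CPM and 42.1 CPM in that order. Of 14 target genes measured, PTCRA alone was 1.5-fold lower and none higher (median -0.08), where 4.05% of all genes were lower and 3.33% higher. MYC, the growth regulator under NOTCH control in this leukemia, had a log2 ratio of -0.03. The transcriptional repressor HES1 stood at -0.02, the ubiquitin ligase gene DTX1 at -0.12, the growth factor receptor IGF1R at -0.06 and the cytokine receptor IL7R at -0.42, where IL7R had 276 counts with shUTX and 559 with shRenilla. MYC-driven ribosome biogenesis genes had none of 30 apart and a median of 0.01, negative under column totals, against -0.39 in CUTLL1.

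Genes of the immature thymocyte had the lowest median of the 35 gene lists other than cell type markers. Of 16 measured genes of the pre-T cell receptor, recombination and thymocyte surface list, 6 were at least 1.5-fold lower, 1 was higher and the median log2 ratio was -0.35, against 4.05% of all genes lower and 3.33% higher. The median over the 15 members measured in both lines was -0.11 in CUTLL1, and 0.07 there with the larger of 2 versions of the CUTLL1 control column. PTCRA, the alpha chain of the pre-T cell receptor, had 89 counts (1.26 CPM) with shUTX, against 462 counts (4.43 CPM) with shRenilla, a ratio of -1.77 (-2.13 to -1.45). In CUTLL1, where PTCRA had 167 CPM with shUTX and 186 CPM with shRenilla, its ratio was -0.11, or 0.13 with that larger column.

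The CD1 genes encode surface molecules that present lipids and mark cortical thymocytes. CD1C had 558 counts (7.88 CPM) with shUTX, against 1942 counts (18.6 CPM) with shRenilla, a log2 ratio of -1.20 (-1.35 to -1.07). CD1E had 833 and 2748 counts in that order, a ratio of -1.13, and CD1B had 432 and 1229 counts, a ratio of -0.91. CD1A, at -0.43, and CD1D, at 0.01, were within 1.5-fold, so the members of the family differed in the size of their ratios. The adhesion receptor CD44 had 121 CPM with shUTX and 219 CPM with shRenilla (-0.82), and the coreceptor chain CD8B had 0.819 CPM and 1.37 CPM (-0.69). RAG1 and RAG2, which cut antigen receptor genes for rearrangement, stood at -0.35 and -0.21. CD4 stood at 0.25, and DNTT, which adds bases at receptor gene joints, at 0.49. CD34, a marker of the earliest progenitors, was the member above 1.5-fold, with 7.37 CPM with shUTX and 4.05 CPM with shRenilla (0.90). In pooled RNA of this kind, fewer cells of a type and less RNA per cell cannot be told apart.

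Transcription factors of the T lineage had 3 of 21 lower and none higher, where 4.05% of all genes were lower and 3.33% higher. Their median was -0.03, a sign that turns positive under DESeq2 size factors. Among them ID2, an inhibitor of E proteins, had 70 counts with shUTX and 207 with shRenilla (-0.96), and ZBTB7B, the factor of the CD4 lineage, had 270 and 679 counts (-0.73). GATA3, a master regulator of T cell development, stood at 0.10. The constant segment of the T cell receptor alpha chain, TRAC, had 217 CPM with shUTX and 393 CPM with shRenilla (-0.82), while TRBC2 of the beta chain had a ratio of 0.13. Of 22 genes of the CD3 complex and proximal signalling, the adaptor gene GRAP2 alone was lower (-0.65) and none was higher. That share lower is near the 4.05% of all genes.

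The promoters of PTCRA and CD1C are shown because both genes were lower and both hold the letters CAGCTG, an E-box of the kind bound by the E proteins TCF3 and TCF12, here in capitals. The motif was chosen after the ratios were known. Each line gives the 250 bases before the start of the gene in RefSeq, build GRCh38.p14, 5′ to 3′ on the strand of the gene, for PTCRA chr6:42915803-42916052 and for CD1C chr1:158289673-158289922, both on the plus strand.
PTCRA: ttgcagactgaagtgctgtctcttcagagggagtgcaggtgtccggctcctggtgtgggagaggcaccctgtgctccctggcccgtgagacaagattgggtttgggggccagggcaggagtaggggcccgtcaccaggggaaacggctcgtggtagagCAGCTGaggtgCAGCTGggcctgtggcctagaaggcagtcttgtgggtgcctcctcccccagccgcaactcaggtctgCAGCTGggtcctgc
CD1C: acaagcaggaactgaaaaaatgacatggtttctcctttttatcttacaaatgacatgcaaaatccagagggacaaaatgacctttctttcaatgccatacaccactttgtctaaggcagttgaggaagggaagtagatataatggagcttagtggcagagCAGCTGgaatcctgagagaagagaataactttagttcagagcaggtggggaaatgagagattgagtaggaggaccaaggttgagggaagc
The PTCRA window holds the letters 3 times and the CD1C window 1 time. CAGCTG reads the same on both strands. It occurs in 14.0% of the 35116 promoters of the table over the same length, a set not limited to genes measured in CEM. Among the 13 measured list members with a promoter there it is in 3 (CD1C, PTCRA and RAG1), and in 2 of the 4 lower ones. A match describes the letters and is no evidence of binding.

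**Figure D2:**
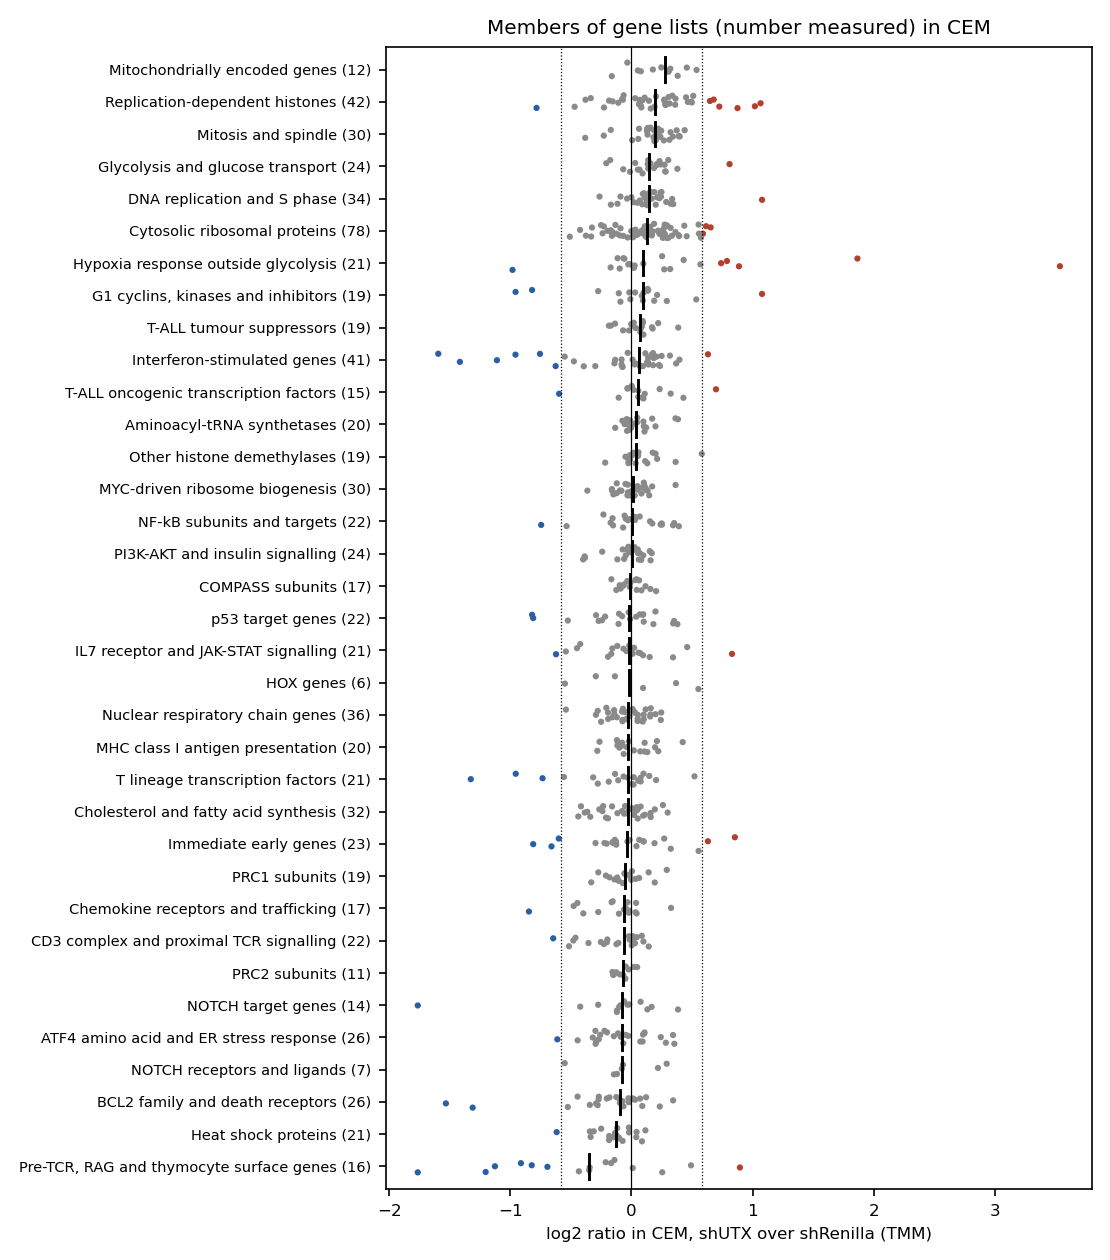
Log2 ratios of shUTX over shRenilla in CEM for the measured members of 35 gene lists, ordered by list median (black bar). Red points are at least 1.5-fold higher and blue points at least 1.5-fold lower; the thymocyte list has the lowest median, at -0.35, and most lists centre near 0.

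Ranked by the interval bound nearest 0, among protein-coding genes with at least 200 counts in either column, KCNK17 led the lower genes. KCNK17, a potassium channel of the background-current family, had 197 counts (2.78 CPM) with shUTX, against 3193 counts (30.6 CPM) with shRenilla, a log2 ratio of -3.42 (-3.64 to -3.22). It had 0 counts in either CUTLL1 column. ZNF683, the transcription factor Hobit of tissue-resident lymphocytes, had 21 and 274 counts with shUTX and shRenilla, a ratio of -3.02 (-3.83 to -2.47). CD48, a ligand on lymphocytes for the receptor CD244, had 324 counts (4.57 CPM) and 1918 counts (18.4 CPM) in that order, a ratio of -1.97. In CUTLL1 the CD48 ratio was -0.51, or 0.24 with the larger control column.

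The lower genes of that ranking also held KDM6A, PTCRA and 6 genes of varied roles. The 6 were the hexokinase-domain gene HKDC1 (-2.07), the peptidase inhibitor gene PI16 (-1.49), the neuronal adhesion gene NEGR1 (-1.46), the egg-coat gene ZP1 (-1.53), the cannabinoid receptor gene CNR2 (-1.52) and the ephrin receptor gene EPHA1 (-1.27). EPHA1 was the best covered of the 6, with 963 counts with shUTX and 3498 with shRenilla. NEGR1 had 470 and 1958 counts in that order. NKG7, a granule membrane gene of cytotoxic lymphocytes, had 14.0 CPM with shUTX and 29.3 CPM with shRenilla (-1.02). Of the 10 NK cell markers 4 were measured, and they summed to 23.5 CPM with shUTX and 39.2 CPM with shRenilla, with NCAM1 higher (1.16), KLRB1 at -0.53 and PRF1 at 0.00. The NK genes NCR1 and FCGR3A were at 0 in both columns. The part of other cells in the NKG7 values was not tested.

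SDK2 led the higher genes. SDK2, an adhesion molecule of the immunoglobulin superfamily known from retinal synapses, had 1173 counts (16.6 CPM) with shUTX, against 141 counts (1.35 CPM) with shRenilla, a log2 ratio of 3.63 (3.40 to 3.91). CUTLL1 had 0 counts with shUTX and 1 count with shRenilla for this gene. PPFIA4, a liprin scaffold of synapses, had 212 and 66 counts with shUTX and shRenilla (2.24), and NDST1, which sulfates heparan sulfate chains, had 283 and 114 counts (1.88). LGMN, the lysosomal asparaginyl endopeptidase, had 2095 counts (29.6 CPM) with shUTX, against 1072 counts (10.3 CPM) with shRenilla, a ratio of 1.56 (1.45 to 1.67).

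The remaining 8 of the 12 highest had ratios between 1.21 and 1.67. They include the aspartyl protease gene BACE2 (1.67), the fatty acid transport gene SLC27A2 (1.60), the arylsulfatase gene ARSD (1.46), the beta-tubulin gene TUBB4A (1.32) and POU2AF1 (1.21), a coactivator of octamer factors best known in B cells. LRRC18 (1.64), AC010336.1 (1.35) and TP53I11 (1.34) complete them. BACE2 had 308 counts with shUTX and 144 with shRenilla, and SLC27A2 had 216 and 106. SDK2, PPFIA4, NDST1, BACE2, SLC27A2, ARSD, TUBB4A and LRRC18 reached the minimum of 200 counts with shUTX alone, the column where they were higher.

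Genes of the hypoxia response outside glycolysis had 5 of 21 measured members at least 1.5-fold higher and 1 lower, against 3.33% and 4.05% of all genes, with a median of 0.10 in CEM and 0.57 in CUTLL1. The CEM median was 0.03 over members with at least 200 counts and 0.18 with at least 10, and the CUTLL1 median was 1.12 with the larger control column. P4HA1, a collagen prolyl hydroxylase subunit, had 5027 counts (71.0 CPM) with shUTX, against 4096 counts (39.3 CPM) with shRenilla, a log2 ratio of 0.89 (0.83 to 0.95). BNIP3, a mitophagy receptor induced by low oxygen, had 16.7 CPM with shUTX and 10.2 CPM with shRenilla (0.74). The collagen lysyl hydroxylase gene PLOD1 had 7.67 CPM and 4.54 CPM in that order (0.79). P4HA2, the paralogous hydroxylase subunit, had 94 and 10 counts with shUTX and shRenilla (3.54). The adenylate kinase gene AK4 had 55 and 21 counts in that order (1.87). Both stood at low depth and reached the minimum of 50 counts with shUTX alone, so their entry depended on being higher there. The vasodilator peptide gene ADM was the lower one, with 17 counts with shUTX and 53 with shRenilla (-0.98). ADM in turn reached the minimum with shRenilla alone. The 5 higher and 1 lower of 21 thus include genes that the minimum admitted by the direction of their ratio. HIF1A, the oxygen-regulated transcription factor, stood at 0.10, VEGFA at 0.27 and NDRG1 at 0.03.

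Glycolysis genes leaned the same way by small amounts. Of 24 measured, 20 were above 0, with LDHA alone past 1.5-fold and none lower, where 3.33% of all genes were higher and 4.05% lower. The median was 0.15 in CEM, against 0.48 in CUTLL1. There 10 of the 24 were past 1.5-fold higher and none lower, where 3.5% of the genes of that line were higher and 2.27% lower. LDHA, which turns pyruvate into lactate, had 18324 counts (259 CPM) with shUTX, against 15757 counts (151 CPM) with shRenilla, a log2 ratio of 0.81 (0.78 to 0.84). ENO1, the glycolytic enolase, stood at 0.38 and GAPDH at 0.14.

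The promoters of P4HA1, BNIP3 and LDHA are shown because these 3 genes were higher and each holds ACGTG, the core that hypoxia-inducible factors bind, on one or the other strand (CACGT on the printed strand marks it on the opposite one). Capitals mark these letters, and CACGTG contains the core on both strands at once. The motif was chosen after the ratios were known. The windows are the 250 bases before the RefSeq start, build GRCh38.p14, on the strand of the gene, for P4HA1 chr10:73096867-73097116 (minus), for BNIP3 chr10:131981924-131982173 (minus) and for LDHA chr11:18394313-18394562 (plus).
P4HA1: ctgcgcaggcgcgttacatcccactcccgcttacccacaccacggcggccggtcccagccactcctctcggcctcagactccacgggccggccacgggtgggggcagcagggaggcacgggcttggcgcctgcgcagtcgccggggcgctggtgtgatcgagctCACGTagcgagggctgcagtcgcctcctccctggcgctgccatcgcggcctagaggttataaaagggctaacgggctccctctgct
BNIP3: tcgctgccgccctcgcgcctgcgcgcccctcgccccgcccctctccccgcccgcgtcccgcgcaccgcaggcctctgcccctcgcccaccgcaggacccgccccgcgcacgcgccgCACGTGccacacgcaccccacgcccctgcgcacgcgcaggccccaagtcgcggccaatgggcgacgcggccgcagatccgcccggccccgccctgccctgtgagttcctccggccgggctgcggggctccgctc
LDHA: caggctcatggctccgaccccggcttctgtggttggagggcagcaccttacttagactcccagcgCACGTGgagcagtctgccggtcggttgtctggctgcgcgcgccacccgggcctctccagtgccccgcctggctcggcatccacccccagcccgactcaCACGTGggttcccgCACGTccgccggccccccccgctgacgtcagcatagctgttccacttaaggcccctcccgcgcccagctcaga
The core is in 18.5% of the 35116 promoters of the table over this length, a set not limited to genes measured in CEM. It is in 19 of the 40 measured members of the hypoxia and glycolysis lists that have a promoter there, and in 4 of the 6 that were at least 1.5-fold higher (AK4, BNIP3, LDHA and P4HA1). It is also in the windows of ALDOC and INSIG2, whose ratios were -0.18 and -0.11.

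Among cell cycle genes, CCNE1 stood out. CCNE1, the cyclin that starts S phase, had 660 counts (9.32 CPM) with shUTX, against 470 counts (4.51 CPM) with shRenilla, a ratio of 1.08 (0.91 to 1.26), close to the 1.02 of CUTLL1. The kinase inhibitor genes CDKN2D (18.6 CPM with shUTX and 37.1 CPM with shRenilla, -0.96) and CDKN1A (2.72 CPM and 4.95 CPM in that order, -0.82) were lower. The other 16 measured genes of the G1 list were within 1.5-fold, where 3.33% of all genes were higher and 4.05% lower. Of 30 mitosis genes, 27 had ratios above 0 with none past 1.5-fold and a median of 0.20, and in CUTLL1 the median was -0.03, or 0.30 with the larger control column. Of 34 DNA replication genes, 28 were above 0 with a median of 0.14, and CCNE1 was the member past 1.5-fold. Replication-dependent histone genes had 6 of 42 higher and 1 lower (median 0.20), where 3.33% of all genes were higher and 4.05% lower. HIST1H4C, the best covered of the 6, had 79.2 CPM with shUTX and 44.2 CPM with shRenilla (0.88). Most histone messages lack a poly(A) tail, and the part of RNA selection in these values was not tested.

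Of 78 messages of the cytosolic ribosome, 58 had ratios above 0, with a median of 0.13, and 3 were past 1.5-fold higher, a share near the 3.33% of all genes. These were RPL28 (0.65), RPS29 (0.62) and RPL30 (0.59), of which RPS29 (0.58) and RPL30 (0.55) were within it under column totals. Mitochondrially encoded genes had 10 of 12 above 0, none past 1.5-fold and a median of 0.28. The processed pseudogenes, intronless copies of messages, went the opposite way. Of 593 measured, 177 (29.8%) were lower by 1.5-fold or more, 16 were higher and the median was -0.32, against 2.15% lower among protein-coding genes. Over the 352 processed pseudogenes measured in both lines, the median was -0.23 in CEM and 0.03 in CUTLL1. At a mean level of 1 CPM or more in CEM, 65 of 303 processed pseudogenes (21.5%) were lower and 8 higher. At that level 2.12% of all genes were lower and 2.72% higher. The 35 pseudogenes named for ribosomal proteins had a median of -0.21. Reads of a message and of its copies can be assigned to either, and the part of that assignment in these values was not tested. Small nucleolar RNA genes had 18 of 77 lower and 2 higher (median -0.31), where 4.05% of all genes were lower and 3.33% higher. At a mean level of 1 CPM or more, 7 of 38 were lower and 2 higher, against 2.12% and 2.72% of all genes.

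**Figure D3:**
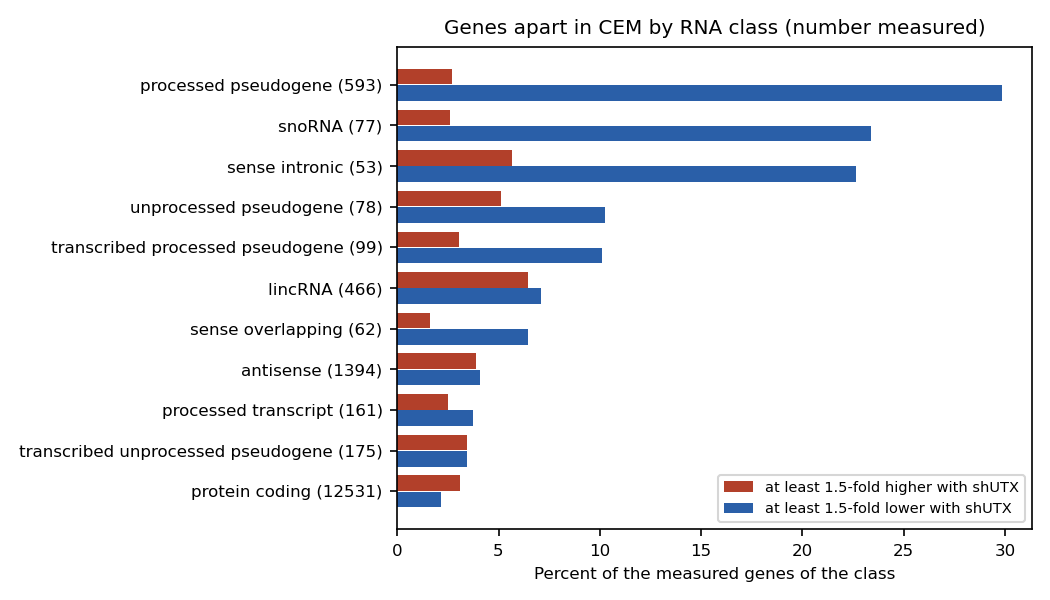
Percent of the measured genes of each RNA class at least 1.5-fold higher (red) and at least 1.5-fold lower (blue) with shUTX than with shRenilla in CEM, for classes with 50 or more genes. Processed pseudogenes reach 29.8% lower, against 2.15% of protein-coding genes.

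Interferon-stimulated genes split. Of 41 measured, 6 were at least 1.5-fold lower and 1, the GTPase gene GBP4 (0.63), was higher, with a median of 0.06, where 4.05% of all genes were lower and 3.33% higher. RSAD2, the antiviral enzyme viperin, had 761 counts (10.7 CPM) with shUTX, against 2482 counts (23.8 CPM) with shRenilla (-1.11). IFIT3 had 146 and 430 counts in that order (-0.96), and OASL had 36 and 149 (-1.42). The other 3 lower members were IFI44L (-1.60), GBP2 (-0.76) and IFIT1 (-0.63). IFI44L had 11 counts with shUTX and 55 with shRenilla, and its interval ran from -2.81 to -0.78. IFI44L and OASL reached the minimum count with shRenilla alone, so their entry depended on being higher there. The 6 lower of 41 thus include genes that the minimum admitted by the direction of their ratio. The ubiquitin-like modifier gene ISG15 stood at 0.06 and the antiviral GTPase gene MX1 at 0.23, both within 1.5-fold.

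Genes of cell death and stress were read against the 4.05% of all genes that were lower and the 3.33% that were higher. Of 26 genes of the BCL2 family and death receptors, 2 were lower and none higher: TNFRSF10A, a receptor for the death ligand TRAIL, had 37 counts with shUTX and 166 with shRenilla (-1.53), and BMF, a pro-death BH3-only gene, had 139 and 524 counts in that order (-1.31). Of 22 p53 target genes, BTG2 (-0.81) and CDKN1A were lower. Of 23 immediate early genes, EGR1 (0.85) and DUSP4 (0.63) were higher, and BTG2, NR4A3 (-0.66) and DUSP2 (-0.60) were lower. Heat shock genes had 1 of 21 lower, HSPA1B (-0.62), and a median of -0.13. XBP1, a factor of the unfolded protein response, was the lower 1 of 26 ATF4 and stress genes, with 115 CPM with shUTX and 180 CPM with shRenilla (-0.61). XBP1 and DUSP2 were within 1.5-fold under DESeq2 size factors (-0.58 and -0.57).

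In the signalling lists, single members were apart, near the 3.33% of all genes higher and the 4.05% lower. Of 21 genes of IL7 receptor and JAK-STAT signalling, SOCS2 was higher (0.83) and SOCS3 lower (-0.62, on 27 counts with shUTX and 64 with shRenilla, or -0.55 with a prior count of 8). Of 22 genes of the NF-kB system, the cytokine gene LTB was lower (-0.75), and of 17 chemokine receptor and trafficking genes CXCR3 was lower (-0.85, on 31 counts with shUTX and 86 with shRenilla), with none higher in either list. No gene passed 1.5-fold among 19 T-ALL tumour suppressors, 6 HOX genes, 20 genes of MHC class I presentation, 32 of cholesterol and fatty acid synthesis, 20 aminoacyl-tRNA synthetases, 36 nuclear genes of the respiratory chain and 24 of PI3K-AKT signalling. Among 15 T-ALL oncogenic transcription factors, MEF2C was higher (0.70) and TLX1 lower (-0.60, on 24 counts with shUTX and 56 with shRenilla, or -0.57 under DESeq2 size factors). TAL1, active in this line, had 36.9 CPM with shUTX and 36.4 CPM with shRenilla, its partner LMO2 stood at 0.23 and LYL1 at 0.43.

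The JMJD3 hairpin in CEM shares the shRenilla column with this comparison, so its values are set beside it without a measure of likeness. SDK2 had 16.6 CPM with shUTX, 110 CPM with shJMJD3 and 1.35 CPM with shRenilla. LGMN had 29.6 CPM, 175 CPM and 10.3 CPM in that order, and P4HA1 had 71.0 CPM, 642 CPM and 39.3 CPM. For these 3 genes the shJMJD3 column was the highest. PTCRA had 1.26 CPM with shUTX, 1.37 CPM with shJMJD3 and 4.43 CPM with shRenilla, so the knockdown columns were close to each other. CD48 had 4.57 CPM with shUTX, 36.8 CPM with shJMJD3 and 18.4 CPM with shRenilla, the knockdowns lying on opposite sides of the control. EGR1 did likewise, with 88.3 CPM, 25.5 CPM and 50.1 CPM, and CCNE1 was high with shUTX alone, at 9.32 CPM, 3.27 CPM and 4.51 CPM. KDM6A had 86.7 CPM with shJMJD3, below the 136 CPM of shRenilla, and KDM6B had 52.2 CPM. These CPM values follow the column totals and carry no TMM scaling. With TMM the log2 ratio of shJMJD3 over shRenilla was -0.38 for KDM6A, within 1.5-fold, and -1.72 for KDM6B. For CCNE1 it was -0.20 (-0.43 to 0.03). The TMM ratio of shJMJD3 over shUTX was 0.34 for PTCRA.

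**Figure D4:**
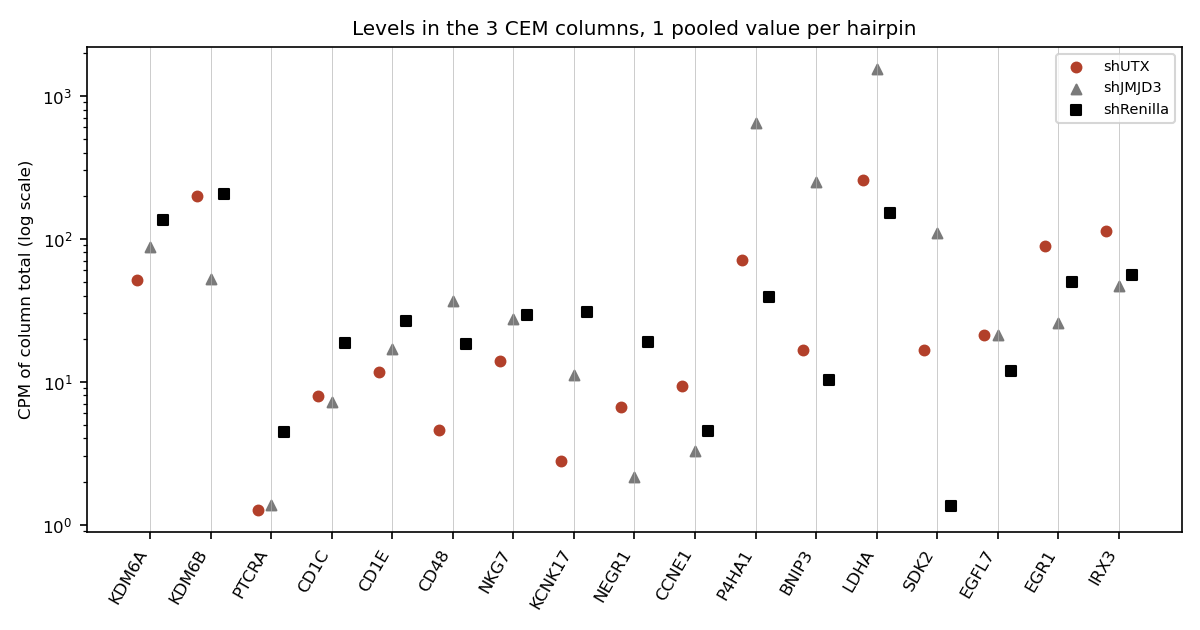
Levels of 17 genes in the shUTX (red circle), shJMJD3 (grey triangle) and shRenilla (black square) columns of CEM, 1 pooled value each and no error bar. Levels are CPM of the column total on a log scale, without TMM scaling. SDK2 stands at 16.6 with shUTX, 110 with shJMJD3 and 1.35 with shRenilla, and CD48 lies on opposite sides of the control with the 2 knockdowns.

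CUTLL1 received hairpins against the same targets and shares no library with CEM. Of 15153 genes with 50 or more counts in either column of both lines, 54.4% had ratios of the same sign, with Pearson's r of 0.16 and Spearman's rho of 0.15 across genes, which are not independent. Of the 357 genes at least 1.5-fold higher in CEM, 57 were so in CUTLL1 (15.97% of the CEM set and 13.8% of the 412 in CUTLL1), where 2.72% of all these genes were. Of the 412 lower in CEM, 25 were lower in CUTLL1 (6.07% of the CEM set and 10.3% of the 243 in CUTLL1), where 1.60% of all were. The 2.72% and 1.60% cover genes of all depths. Of all genes apart in CEM, 429 of 559 higher and 547 of 680 lower had under 500 counts in their higher column. The part of depth in these shares was not tested. In 34 genes the lines went opposite ways: 27 were lower in CEM and higher in CUTLL1, and 7 were the reverse. The genes lower in CEM were thus higher in CUTLL1 (27) about as often as lower there (25). Their median ratio in CUTLL1 was 0.04. As shares of the 15153 genes, 0.376% were higher in both, 0.165% lower in both and 0.224% opposite.

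The protein-coding genes highest in both lines, by the smaller of their ratios, were P4HA2 (3.54 in CEM and 1.54 in CUTLL1), HSPG2 (1.90 and 1.39), CCDC113 (1.20 and 1.24), EPSTI1 (1.18 and 1.20), CCNE1, PPFIA4 (2.24 and 0.98), AK4 (1.87 and 0.96) and NAT8L (1.37 and 0.92). HSPG2 encodes the basement membrane proteoglycan perlecan. Lowest in both were TNFRSF10A (-1.53 and -2.90), KDM6A, NEGR1 (-1.46 and -0.91), NCR3 (-0.90 and -0.98), CXCR3 (-0.85 and -1.34), CHRNA10 (-0.84 and -0.95), PTGER3 (-1.86 and -0.84) and ABCC2 (-0.78 and -0.87). NCR3 is an activating receptor of NK cells and CXCR3 a chemokine receptor of effector lymphocytes. Several rest on few counts: TNFRSF10A had 4 counts with shUTX and 59 with shRenilla in CUTLL1. These ratios use the CUTLL1 control column that the authors paired with shUTX; with the larger version of it, the ratio in CUTLL1 was within 1.5-fold for NEGR1 (-0.25), PTGER3 (-0.33) and NAT8L (0.41). It was -2.31 for TNFRSF10A and 0.69 for CCNE1 with that column. Some genes listed here reached the minimum of 50 counts only in their higher column, so their entry depended on the direction of the ratio. Among the higher genes these were P4HA2 in both lines, AK4 and NAT8L in CEM, and HSPG2 and EPSTI1 in CUTLL1. Among the lower they were TNFRSF10A and CXCR3 in both lines, PTGER3 in CEM and ABCC2 in CUTLL1. CCDC113, CCNE1, PPFIA4, KDM6A, NEGR1, NCR3 and CHRNA10 reached it in both columns of both lines.

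**Figure D5:**
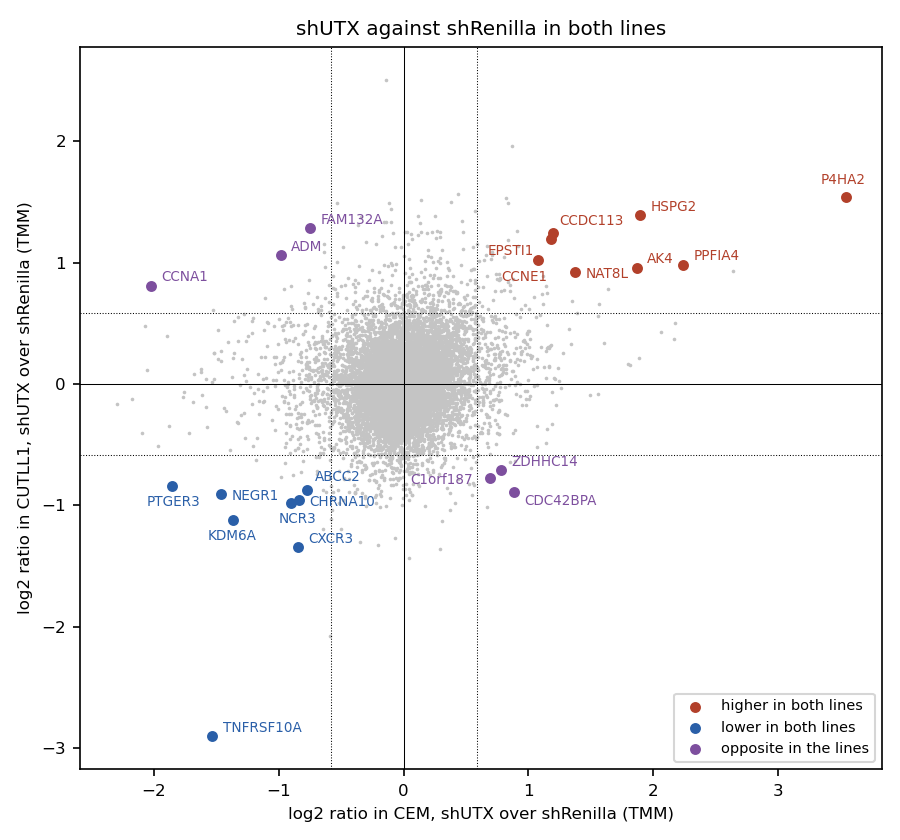
Log2 ratio of shUTX over shRenilla in CEM (x axis) and in CUTLL1 (y axis) for 15153 genes, with dotted lines at 1.5-fold. P4HA2 is the far point at the upper right, TNFRSF10A and KDM6A lie at the lower left, and CCNA1 and ADM are among the genes that go opposite ways.

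The lines also served as replicates in 1 test across all genes. With edgeR's quasi-likelihood test on the 6 columns, with the line as a block and 2 residual degrees of freedom, 0 of 23112 genes (0.0% higher and 0.0% lower) passed a Benjamini-Hochberg adjusted p of 0.05 for shUTX over shRenilla. At an unadjusted p under 0.05 there were 39, far below a share of 0.05 of the genes tested. The fit was thus conservative and did not call the target KDM6A either. Its 0 calls do not show that genes were unchanged. DESeq2 on the same columns called 1 gene, KDM6A, lower in both lines, with an adjusted p of 0.0029. The edgeR fit on the 4 shUTX and shRenilla columns alone has 1 residual degree of freedom and called 12 genes higher (0.0538% of 22305) and 4 lower (0.0179%).

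Those 16 calls include genes that only CEM could decide. KDM6A had a log2 ratio of -1.24 ± 0.11 (SE, edgeR adjusted p 0.000333) and was lower in both lines. By the same edgeR fit EGR1 stood at 0.83 ± 0.10 (adjusted p 0.00825), P4HA1 at 0.80 ± 0.11 (0.0123), BNIP3 at 0.83 ± 0.11 (0.00957), CCNE1 at 1.05 ± 0.15 (0.0243) and NEGR1 at -1.22 ± 0.18 (0.0289), each with the same sign in 2 of 2 lines. KCNK17, SDK2 and TRAV29DV5 were called with 0 or 1 count per column in CUTLL1, so their call rests on CEM. The other 7 were ARHGAP29, EGFL7, EPSTI1, IRX3, KRT1, PPFIA4 and RP11-104H15.7, all with ratios above 0 in both lines. They were named here after their values were seen. In edgeR's 6-column fit the adjusted p of each of these genes was 1. IRX3 had 16 counts with shUTX and 18 with shRenilla in CUTLL1, a ratio of 0.34 (-0.69 to 1.43), so its call rests on CEM as well. With the larger CUTLL1 control column in the 6-column fit, 0 were called and the smallest adjusted p was 0.0681.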

How the data were processed

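RNA sequencing covered 14 samples of CEM and CUTLL1, grouped by the labels. Per the labels' protocols, libraries were strand-specific (dUTP) and read as 50-nt single reads. TopHat, CASAVA and hg19, with no versions, stand in the submitters' processing notes. The counting program, its annotation and strand setting: not given in the sources used here. Raw read counts came in 6 tables that the authors deposited, with a pooled column for each hairpin in each line. The deposited log2 ratios and p-values of the authors come from DEGseq, per the labels, and compare reads and not conditions. The authors' deposited table gives a p-value under 0.001 to 6947 genes, of which 82.6% differ less than 1.5-fold, so those values were not used further. Nothing in the labels says whether samples of a group were separate cultures. Column totals ranged from 70280185 to 174301733 counts, or 258014046 for the larger CUTLL1 control column. The smaller one, paired with shUTX by the authors, was used.

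Ratios were computed from the counts with TMM factors over 6 columns (edgeR 4.0.16, R 4.3.3) and a prior count of 2, with Clopper-Pearson 95% intervals. Column totals shift each ratio by -0.04 and DESeq2 size factors by 0.03. The across-lines test was edgeR's quasi-likelihood test, checked on simulated data, with DESeq2 1.42.0 as an alternative. The check had to pass at a preset dispersion and not at that of these columns. Biotypes came from GENCODE 29 by Ensembl ID for 48932 of 55075 genes. The RefSeq promoter table (GRCh38.p14) held 10167 of the 12531 protein-coding genes. Overlapping genes and near-identical copies are uncertain: RPPH1, under 2 IDs, was counted nearly equally for both.

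Named genes were both targets, a panel of 17, the 12 protein-coding genes at each end with 200 or more counts by the interval bound nearest 0, the 8 at each end of both lines, up to 6 opposite in the lines, up to 4 per list past 1.5-fold, and any list member where its list is described. The members and the 41 lists were chosen with earlier results of these data known. Of the genes this rule names, 2 are not reported here.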

Additional observations from a re-analysis of the deposited data

Results flagged for a closer look

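Of the 34 genes at least 1.5-fold apart in opposite directions in CEM and CUTLL1, these are the 6 protein-coding ones with the largest smaller ratio. The difference between the lines was not tested for any of them, since each line has 1 value per hairpin. ADM, a vasodilator peptide gene, had a log2 ratio of -0.98 in CEM, on 17 counts with shUTX and 53 with shRenilla, and 1.06 in CUTLL1. CDC42BPA, a kinase gene of the cytoskeleton, stood at 0.88 in CEM, on 3603 and 2949 counts in that order, and at -0.89 in CUTLL1, on 78 and 213. CCNA1, the germ cell cyclin A, stood at -2.02 in CEM, on 12 and 81 counts, and at 0.81 in CUTLL1. FAM132A stood at -0.75 and 1.28, ZDHHC14 at 0.78 and -0.71, and C1orf187 at 0.69 and -0.77, in CEM and CUTLL1 in that order. With the larger CUTLL1 control column the CUTLL1 ratio kept its sign in all 6, at -0.28 for CDC42BPA and -0.39 for C1orf187, which are within 1.5-fold.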

How the results depend on the processing

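No paired analysis was possible because each deposited column pools the replicates of a hairpin and carries no replicate number, and for the same reason no replicate could be left out. The counts of genes apart depend on the minimum level. With at least 10 counts, 1332 genes were 1.5-fold higher and 2109 lower, and 463 and 976 at 2-fold. With at least 200 counts these were 257 and 241, and 43 and 55 at 2-fold. With a mean of 1 CPM, chosen after seeing the data, they were 409 and 318, and 81 and 66 at 2-fold. Among protein-coding genes alone, 270 were lower at 1.5-fold and 83 at 2-fold. The share of higher genes among those apart was 45.1%, against 39.3% with column totals and 50.6% with DESeq2 size factors. Genes called across lines numbered 1 with DESeq2 and 16 with 4 columns, against 0. The genes 1.5-fold apart the same way in both lines numbered 313 with the larger CUTLL1 control column and 27 at 200 counts, against 82. The cause of these differences was not tested beyond the numbers of genes and columns entered. No ratio past 1.5-fold changed sign under another scaling or prior count, and of the settings tried for named genes 497 left the ratio within its counting interval and 18 moved it out, by scaling alone. Of 100 genes past 1.5-fold in the lists or named, 6 were within it under another scaling or prior count (DUSP2, RPL30, RPS29, SOCS3, TLX1 and XBP1). Depth limits the genes under 500 counts, whose median interval half-width was 0.39, against 0.04 at 5000 or more.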
